A study of Mus musculus with 32 samples.

Results

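The genes described here encode the lysine tRNAs and all arginine tRNAs except those with the anticodon TCT. They were taken by name, as every locus listed under tRNA-Lys or tRNA-Arg other than tRNA-Arg-TCT. The rule used no measured value, although earlier results of these data were known when the loci were chosen. They numbered 51 of the 401 mouse tRNA loci measured, with 32 lysine loci (19 Lys-CTT and 13 Lys-TTT) and 19 arginine loci (6 Arg-ACG, 3 Arg-CCG, 5 Arg-CCT and 5 Arg-TCG).

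Chromatin accessibility was read by ATAC-seq, in which an engineered transposase inserts sequencing adapters where DNA is open, in nuclei from brain or liver of male C57BL/6N mice aged 10 weeks. The mice were wild type or homozygous for a deletion made with CRISPR-Cas9 and a single guide RNA in 1 phenylalanine tRNA gene. The gene was tRNA-Phe-GAA-1-1 in the knockout called Phe11, tRNA-Phe-GAA-2-1 in Phe21 and tRNA-Phe-GAA-3-1 in Phe31. No lysine or arginine tRNA gene was deleted. The 32 libraries were 5 wild-type, 4 Phe11, 3 Phe21 and 3 Phe31 brains, and 7 wild-type, 4 Phe11, 3 Phe21 and 3 livers labelled Phe31, in 3 batches named by the labels.

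A tRNA gene is transcribed by RNA polymerase III from promoter elements inside the gene, the A box and the B box, so an active copy is usually found in open chromatin. Mammalian genomes carry many copies of each tRNA gene. Copies with 1 anticodon belong to an isoacceptor group, copies whose bodies differ are called isodecoders, and in the names used here loci that share the number after the anticodon encode the same mature tRNA. Lysine tRNAs with the anticodon CTT read the codon AAG and those with TTT read AAA, while Arg-ACG, Arg-TCG and Arg-CCG serve the CGN codons and Arg-CCT serves AGG. Lysine and arginine are the basic amino acids that are abundant in histones and other proteins that bind nucleic acids.

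Brain libraries held 20315 to 35565 reads over the 401 loci and liver libraries 4719 to 23754, of which the lysine and arginine loci took 2625 to 4440 and 563 to 3285. Wild-type liver replicates 1 and 22 were closer to each other than independent sampling allows and were counted as 1 sample. In 3 other pairs the counts were also closer than sampling allows: wild-type brains 3 and 18, wild-type livers 3 and 24, and Phe11 livers 6 and 20. They were kept apart, and calls lost when they are averaged are given with the results. The tests of whether a change differs between tissues were not refitted with these pairs averaged. In 5 of the 6 comparisons the deleted gene was lower in every knockout library than in any wild-type library, from few reads in Phe21. The exception was the livers labelled Phe31, which kept tRNA-Phe-GAA-3-1 (normalised counts of 9.01 to 10.6 against 9.91 to 15.6 in their wild-type livers) and were low at tRNA-Phe-GAA-1-1 (0 to 2.25 against 5.66 to 10.7), so they are called the livers labelled Phe31 throughout. The tissue labels were borne out by tRNA-Arg-TCT-4-1, a gene used in the central nervous system, with counts of 164.3 or more in every brain and 10.7 or less in every liver. In whole tissue, a lower signal cannot be told apart from fewer cells in which the locus is open.

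Wild-type tissue was examined first, to see which copies carried the signal. Levels are given as reads per 10000 reads over the 401 loci, with the mean ± SD over 5 brains or over 3 livers of batches 1 and 2. All annotated lysine and arginine genes of these kinds in RefSeq are 73 nt long, so levels were not divided by length. The 51 loci held 12.96% ± 0.162 of all reads in wild-type brain and 14.8% ± 0.291 in wild-type liver, beside 12.7% of the loci. In brain the largest isoacceptor share was that of Arg-ACG, with 3.88% ± 0.0907 of all reads from 6 loci, and the 19 Lys-CTT loci together held 1.74% ± 0.0841. In liver Arg-ACG held 4.38% ± 0.0878 and Lys-CTT 2.29% ± 0.165.

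Copies with the same anticodon differed in level, and the highest and lowest of those tested between the wild-type tissues are given here for each group. Among the Arg-ACG genes, tRNA-Arg-ACG-1-3 was highest in brain, with 168.9 ± 6.22, and tRNA-Arg-ACG-3-1 was highest in liver, with 156.7 ± 8.92. The lowest were tRNA-Arg-ACG-3-2 in brain, at 9.44 ± 2.36, and tRNA-Arg-ACG-1-1 in liver, at 16.3 ± 0.799. In the wild-type livers of batch 3, however, tRNA-Arg-ACG-1-3 led tRNA-Arg-ACG-3-1 (37.7% against 28.5% of the Arg-ACG reads). It also led in Phe11 livers (35.3% against 31.2%), Phe21 livers (39.6% against 33.2%) and the livers labelled Phe31 (33.0% against 29.5%). The 3 Arg-CCG genes were closer to each other, and tRNA-Arg-CCG-3-1 was the highest in brain and in liver (55.1 ± 3.80 and 47.6 ± 5.28). tRNA-Arg-CCG-1-1 was the lowest (35.7 ± 3.58 and 16.96 ± 4.98).

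The AGG-reading Arg-CCT genes were led by tRNA-Arg-CCT-2-1, with 89.5 ± 7.23 in brain and 164.7 ± 14.7 in liver. The lowest of those tested were tRNA-Arg-CCT-1-1 in brain (22.9 ± 3.19) and tRNA-Arg-CCT-3-1 in liver (39.4 ± 1.56). tRNA-Arg-TCG-1-1 led the Arg-TCG genes, with 65.7 ± 3.69 in brain and 164.0 ± 5.32 in liver, where it took 70.4% of the reads of its group against 43.9% in brain. The lowest were tRNA-Arg-TCG-3-2 in brain (8.30 ± 1.75) and tRNA-Arg-TCG-3-1 in liver (6.52 ± 2.75), although in liver the ranges of these copies overlapped.

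Among the lysine loci, which are more numerous, levels also ran from high to near-silent copies. tRNA-Lys-CTT-3-3 was the highest Lys-CTT copy in both tissues, with 44.9 ± 1.63 in brain and 60.0 ± 4.16 in liver. tRNA-Lys-CTT-3-6 was the lowest tested in brain (1.74 ± 0.936), and tRNA-Lys-CTT-3-1 the lowest tested in liver (4.71 ± 2.49). For Lys-TTT the leading copy differed by tissue: tRNA-Lys-TTT-1-1 in brain, at 59.9 ± 5.18, and tRNA-Lys-TTT-1-6 in liver, at 38.0 ± 2.23, next to tRNA-Lys-TTT-1-3 at 37.6 ± 5.68, from which it did not differ beyond the spread. tRNA-Lys-TTT-2-2 was the lowest tested, at 10.4 ± 1.01 in brain and 3.06 ± 1.34 in liver.

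**Figure D1:**
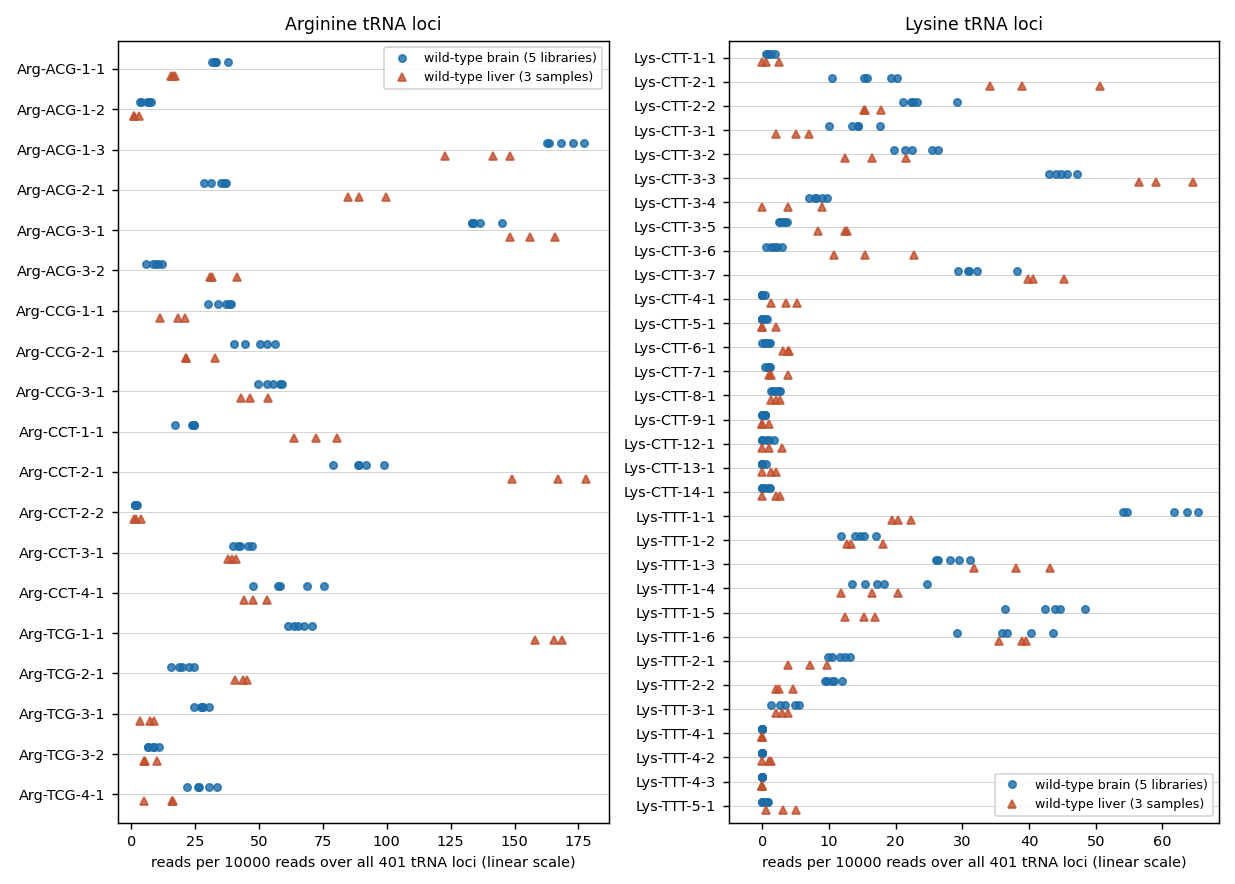
Accessibility of the 19 arginine loci (left) and 32 lysine loci (right), in reads per 10000 reads over all 401 tRNA loci on linear axes, with 1 point per wild-type brain library (circles, 5) or wild-type liver sample (triangles, 3). tRNA-Arg-ACG-1-3 and tRNA-Arg-ACG-3-1 lie at 122.8 or more in both tissues, and a group of lysine copies lies near 0 in both.

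A number of annotated copies had few reads or none. A locus was tested only where its mean normalised count reached 10 in the comparison, and 15 of the 51 loci (29.4%) fell below this in all 6 knockout comparisons, beside 33.4% of all 401 loci. They were 10 of the 19 Lys-CTT loci, 4 of the 13 Lys-TTT loci and tRNA-Arg-CCT-2-2, and 25 loci were tested in all 6. tRNA-Lys-TTT-4-1 and tRNA-Lys-TTT-4-3 had no read in any library, which allows at most 0.0749 reads per 10000 in brain and 0.174 in liver (3 counts over 400474 and 172290 reads, counting error only). tRNA-Lys-TTT-4-2, whose mature tRNA is the same as theirs, had no read in brain and 5 in the 17 livers.

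Copies of identical mature sequence were far from equal. The 51 names held 9 sets of such copies, with 29 loci, and these sets were chosen for description after their values were seen. tRNA-Arg-ACG-1-3 had 4.45 to 5.48 times the reads of tRNA-Arg-ACG-1-1 in the 5 wild-type brains and 7.24 to 9.20 times in the 3 wild-type livers. tRNA-Arg-ACG-3-1 had 10.97 to 22.6 times the reads of tRNA-Arg-ACG-3-2 in brain and 3.57 to 5.24 times in liver. In both pairs the order of the copies was the same in every library. The ratios did not overlap between these wild-type tissues, but over all genotypes those of the first pair did, with up to 6.37 in Phe31 brain and from 5.64 in Phe11 liver. The mapping quality filter applied by the authors removes reads that fit several places, which can lower copies with similar flanks, and its part in these ratios was not tested.

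In a further pair the order turned. The reads of tRNA-Lys-CTT-2-1 were 0.452 to 0.891 times those of tRNA-Lys-CTT-2-2 in wild-type brain and 1.92 to 3.33 times in wild-type liver. Among the Lys-TTT copies, tRNA-Lys-TTT-1-1 had 1.83 to 2.41 times the reads of tRNA-Lys-TTT-1-3 in brain and 0.452 to 0.703 times in liver. In both pairs the higher of the compared copies was thus a different one in each wild-type tissue. The Phe11 and Phe21 libraries, which are other samples, gave ranges on the same sides for the second pair, with 1.49 or more in every brain and 0.805 or less in every liver, whereas for the first pair single brains reached 1.13 in Phe11 and 1.03 in Phe21. The second ratio was 1.17 or more in Phe31 brains and 0.913 or less in the wild-type livers of batch 3, but ran from 0.750 to 2.33 in the shallow livers labelled Phe31.

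The next question was which loci differ between tissues relative to the other tRNA loci. Reads of both tissues were scaled together and tested with limma, an adjusted p under 0.05 after the Benjamini-Hochberg method being called. In wild type 24 of 32 lysine and arginine loci tested were called, beside 72.7% of all 238 loci tested. Of these 12 were higher in brain, beside 40.3% of all loci, and 12 in liver, beside 32.4%, and the tissues did not overlap at 23 of the 32, beside 68.1%. In Phe11 the count was 24 of 35 (11 higher in brain and 13 in liver), beside 66.3% of all loci (33.7% and 32.6%). In Phe21 it was 17 of 31 (9 and 8), beside 61.7% (32.3% and 29.4%). The share among lysine and arginine loci was thus near that of all tRNA loci. Of 30 loci tested in all 3 genotypes, 7 were higher in brain and 8 in liver in each, which is 50.0% beside 45.9% of all 229 loci so tested.

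Among loci called alike in all 3 genotypes, the 6 with the largest brain excess belonged to 5 anticodon groups. tRNA-Arg-TCG-3-1, a gene for the CGA-reading tRNA, had 24.6 to 30.4 reads per 10000 in wild-type brains and 3.50 to 8.87 in wild-type livers, a log2 difference of 2.00 ± 0.24 (SE), with 1.88 ± 0.19 in Phe11 and 2.84 ± 0.36 in Phe21. The lysine copy tRNA-Lys-CTT-3-1 ranged from 10.1 to 17.7 in brain and from 2.05 to 7.00 in liver, and its log2 differences were 1.48 ± 0.34, 1.62 ± 0.25 and 1.98 ± 0.46 in wild type, Phe11 and Phe21. tRNA-Lys-TTT-1-1 ranged from 54.1 to 65.3 in brain and from 19.5 to 22.4 in liver, with log2 differences of 1.45 ± 0.12, 1.62 ± 0.17 and 1.48 ± 0.16. None of these ranges overlapped between wild-type tissues. The liver means of tRNA-Arg-TCG-3-1 and tRNA-Lys-CTT-3-1 were below the filter of 10 in wild type and Phe21, so both were tested there through their higher level in brain. tRNA-Lys-TTT-1-5, which encodes the same tRNA as tRNA-Lys-TTT-1-1, gave 1.45, 0.79 and 0.92. tRNA-Arg-CCG-1-1 gave 1.06, 0.93 and 0.82, and tRNA-Arg-ACG-1-1 gave 0.95, 0.97 and 0.86.

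Among loci higher in liver in all 3 genotypes, 5 of the 6 with the largest excess were arginine genes. tRNA-Arg-ACG-3-2 had 5.91 to 12.2 reads per 10000 in wild-type brains and 30.8 to 41.5 in wild-type livers, and its log2 differences, brain minus liver, were -1.86 ± 0.23 in wild type, -1.31 ± 0.17 in Phe11 and -2.70 ± 0.30 in Phe21. tRNA-Arg-CCT-1-1, for the AGG codon, had 17.2 to 24.6 in brain and 63.7 to 80.5 in liver, with differences of -1.68, -1.30 and -1.80. tRNA-Arg-ACG-2-1 had 28.7 to 36.9 in brain and 84.9 to 99.7 in liver, with -1.50, -0.90 and -1.13. tRNA-Arg-ACG-3-2 had a brain mean below the filter in Phe21 and was tested there through liver. For these arginine genes no wild-type brain reached the level of any wild-type liver. tRNA-Arg-TCG-1-1 gave -1.38, -1.11 and -0.79, and tRNA-Arg-TCG-2-1 gave -1.13, -0.79 and -1.11. The lysine locus among the 6 was tRNA-Lys-CTT-2-1, with -1.40, -1.28 and -1.54, while its identical copy tRNA-Lys-CTT-2-2 differed the other way in wild type, by 0.48 ± 0.17 (adjusted p = 0.018 by limma).

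Some anticodon groups held members on both sides and others on 1 side. In wild type the 3 Arg-CCG loci comprised 2 higher in brain and 1 that did not pass, the 4 Arg-CCT loci tested comprised 2 higher in liver and 2 that did not pass, and the 8 Lys-TTT loci tested comprised 4 higher in brain, 1 higher in liver and 3 that did not pass. Arg-ACG, Arg-TCG and Lys-CTT each had loci called in either direction. Among the Lys-TTT loci higher in brain, tRNA-Lys-TTT-2-2 had 432 reads over all brains and 41 over all livers. It was tested through its higher level in brain. tRNA-Lys-CTT-3-6, called higher in liver, had 98 reads over all brains and 230 over all livers and was tested through liver. These values depend in part on which wild-type livers are used. With the 3 wild-type livers of batch 3 in place of those of batches 1 and 2, tRNA-Arg-TCG-2-1 was at -0.22 (adjusted p = 0.30 by limma). tRNA-Lys-CTT-2-2 was at 0.48 (adjusted p = 0.103 by limma), tRNA-Arg-ACG-1-1 at 0.34 and tRNA-Arg-TCG-1-1 at -0.87. The call at tRNA-Lys-CTT-3-3, higher in liver in all 3 genotypes, was lost with those livers (-0.19, adjusted p = 0.0874 by limma). So was that at tRNA-Arg-ACG-3-1 (-0.04, adjusted p = 0.575 by limma). tRNA-Arg-ACG-1-3 (-0.14, adjusted p = 0.0221 by limma) and tRNA-Lys-TTT-2-1 (-0.50, adjusted p = 0.0459 by limma) passed the threshold in the opposite direction. tRNA-Lys-TTT-1-3 (0.14) and tRNA-Lys-CTT-3-7 (0.17) changed direction without passing it. The wild-type calls at tRNA-Lys-TTT-1-3 and tRNA-Lys-TTT-2-1 were lost with all close pairs averaged (-0.37 and 0.57) and without wild-type liver 24 (-0.35 and 0.72). That at tRNA-Lys-TTT-2-1 was also lost without wild-type brain 1 (0.76), 2 (0.65), 16 (0.78) or 18 (0.81), without wild-type liver 3 (0.36) or 22 (0.55), with wild-type livers 1 and 22 as 2 samples (0.61), and with edgeR (0.45) or DESeq2 (0.49). The call at tRNA-Lys-CTT-2-2 was lost without wild-type brain 16 (0.39), wild-type liver 3 (0.44) or wild-type liver 24 (0.42), and with edgeR (adjusted p = 0.0565) or DESeq2 (adjusted p = 0.112).

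**Figure D2:**
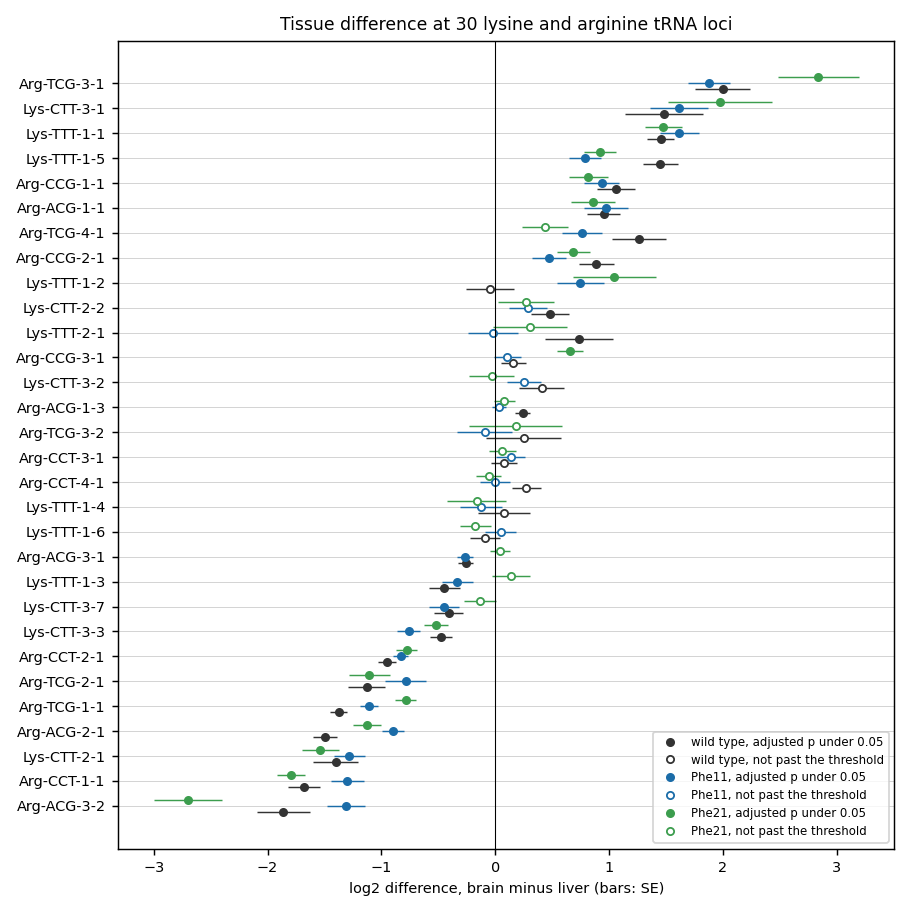
The log2 difference, brain minus liver, at the 30 lysine and arginine loci tested in wild type, Phe11 and Phe21, with bars for the SE and filled points for an adjusted p under 0.05. 8 loci at the bottom lie on the liver side and 7 on the brain side in all 3 genotypes, from tRNA-Arg-ACG-3-2 to tRNA-Arg-TCG-3-1.

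The authors' peak lists gave a second view by position, on GRCm38.p6. RefSeq lists 26 lysine and 19 arginine tRNA genes of these kinds on that build under names of its own, which could not be paired with the locus names used above. Of the 45 genes, 31 overlapped a peak by at least 1 base in all 3 brain lists (68.9%, beside 52.6% of all 430 RefSeq tRNA genes) and 26 in all 3 liver lists (57.8% beside 40.9%), while 12 overlapped none (26.7% beside 42.3%). The 3 lists of each tissue share libraries and the liver libraries were shallower, so these are descriptions. Among the arginine genes, 17 of 19 overlapped a peak in all 3 brain lists, and n-TRcct4 on chromosome X (111377217 to 111377289) overlapped none. Of the 24 RefSeq genes for Lys-CTT, 11 overlapped no peak, which at 45.8% is near the share of all tRNA genes. RefSeq divides the lysine genes otherwise, with 24 for CTT and 2 for TTT against 19 and 13 in the measured loci, so the groups are not the same.

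No lysine or arginine gene overlapped a peak in liver but not in brain, and 5 did so in brain but not in liver, where 5 and 32 of all 430 tRNA genes did. The 5 were n-TKctt15 on chromosome 3 (96428235 to 96428307) and 4 genes of chromosome 13: n-TKctt11 (23436340 to 23436412), n-TKttt22 (21971788 to 21971860), n-TKttt23 (21907940 to 21908012) and n-TRacg4 (23500522 to 23500594). Of these, n-TKttt22 and n-TRacg4 overlapped a peak in 1 brain list only, that of Phe11, while n-TKctt11, n-TKctt15 and n-TKttt23 did so in all 3. Chromosome 13 holds 7 of the 19 arginine and 5 of the 26 lysine genes. n-TRtcg2 and n-TRtcg3, also there (21279696 to 21279768 and 23503980 to 23504052), overlapped a peak in all 3 brain lists and in 1 liver list. These genes were named after their overlaps were seen.

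The knockout comparisons asked whether loss of 1 phenylalanine tRNA gene alters accessibility at other tRNA genes. In Phe11 brain, 8 of 34 lysine and arginine loci tested changed, beside 28.1% of all 263 loci. Of the 8, 3 were higher, beside 14.8% of all loci, and 5 lower, beside 13.3%. The groups did not overlap at 8 of the 34, which were the loci called, beside 27.8% of all loci. The median log2 change was -0.03 over the 34 loci and -0.01 over all loci. The calls fell on 7 of 18 arginine loci and 1 of 16 lysine loci. Of the 34, 32 lay within 0.5 of no change on the log2 scale. Changes are given as knockout minus wild type on log2(normalised count + 1), with limma's adjusted p.

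The 3 loci that rose in Phe11 brain had low or middle levels. tRNA-Arg-ACG-2-1 had normalised counts of 94.9, 95.9, 81.7 and 74.1 in wild-type brains and 112.8, 111.7, 124.5 and 122.9 in Phe11 brains, a log2 change of 0.45 ± 0.10 (SE; adjusted p = 0.00101). tRNA-Arg-ACG-3-2 had 31.6, 15.3, 27.9 and 25.5 in wild type and 35.0, 36.9, 36.1 and 39.5 in Phe11, a change of 0.58 ± 0.18 (adjusted p = 0.0163). Wild-type brain 3 was the lowest of these, and without it the change was 0.36 (adjusted p = 0.107). The call at tRNA-Arg-ACG-3-2 was also lost without wild-type brain 18 (0.58) or Phe11 brain 6 (0.55). tRNA-Lys-TTT-3-1, a lysine locus of few reads, had 8.72, 14.1, 3.22 and 6.92 in wild type and 27.2, 14.8, 19.1 and 22.8 in Phe11, which gave 1.36 ± 0.33 (adjusted p = 0.00229). Its wild-type mean of 8.24 was below the filter of 10, so it was tested through its higher level in Phe11.

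The 5 loci that fell in Phe11 brain were arginine genes, with members from each of the 4 anticodons. tRNA-Arg-ACG-3-1, the identical copy of tRNA-Arg-ACG-3-2, had 346.8, 346.4, 356.8 and 347.5 in wild type and 253.8, 299.1, 287.3 and 290.5 in Phe11, a change of -0.31 ± 0.05 (adjusted p = 2.04e-05). tRNA-Arg-CCT-4-1 had 196.3, 149.6, 152.6 and 178.4 in wild type and 109.9, 137.6, 113.9 and 126.4 in Phe11, a change of -0.47 ± 0.09 (adjusted p = 0.000351). Every Phe11 brain lay below every wild-type brain at both. tRNA-Arg-CCG-3-1 fell from 141.2 ± 9.64 (SD, n = 4) to 114.1 ± 8.53 (n = 4; limma adjusted p = 0.00725), tRNA-Arg-ACG-1-3 from 439.5 ± 16.9 to 392.0 ± 12.1 (adjusted p = 0.00163) and tRNA-Arg-TCG-1-1 from 172.2 ± 10.1 to 147.4 ± 4.68 (adjusted p = 0.020). The ratio of tRNA-Arg-ACG-3-1 to tRNA-Arg-ACG-3-2 was 7.25 to 8.10 in Phe11 brains against 10.97 to 22.6 in wild type. For tRNA-Arg-TCG-1-1 the call was lost without wild-type brain 3 (-0.19) or Phe11 brain 14 (-0.22).

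Both batches held both genotypes in this comparison. All 8 loci changed in the same direction within each batch, with log2 changes in batch 1 from -0.48 at tRNA-Arg-CCT-4-1 to 0.80 at tRNA-Lys-TTT-3-1, but the sizes differed between batches. None passed the threshold in batch 1 alone and 5 did in batch 2 alone, with 2 libraries per genotype in each. The change at tRNA-Arg-ACG-2-1 was 0.23 in batch 1 and 0.66 in batch 2, and that at tRNA-Lys-TTT-3-1 was 0.80 and 1.92. Those not called in batch 2 were tRNA-Arg-ACG-3-2 (0.49), tRNA-Arg-CCG-3-1 (-0.26) and tRNA-Arg-TCG-1-1 (-0.15). Without limma's trend tRNA-Arg-ACG-1-3 (adjusted p = 0.123), tRNA-Arg-ACG-3-2 (adjusted p = 0.0574) and tRNA-Arg-TCG-1-1 (adjusted p = 0.0551) were not called, nor was tRNA-Arg-TCG-1-1 with equal library totals (adjusted p = 0.0606). DESeq2 on the recovered reads called 4 of the loci and did not call tRNA-Arg-ACG-1-3, tRNA-Arg-ACG-3-2, tRNA-Arg-CCG-3-1 or tRNA-Arg-TCG-1-1.

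In Phe21 and Phe31 brain no lysine or arginine locus passed the limma threshold. In Phe21 brain 0 of 33 did, beside 0% of all 253 loci, and 5 of the 33 had an unadjusted p under 0.05 beside 17% of all loci. The groups did not overlap at 8 of the 33, beside 24.1%. In Phe31 brain 0 of 34 did, beside 0.775% of all 258 loci, and none of the 34 had an unadjusted p under 0.05 beside 6.2% of all loci. edgeR and DESeq2 on the recovered reads also called none in either. Both comparisons use the same 3 wild-type brains. The log2 changes ranged from -0.77 to 0.34 in Phe21 brain and from -0.62 to 0.32 in Phe31 brain.

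In Phe11 liver 2 of 28 loci were called, both lower, beside 10.5% of all 209 loci (6.7% called lower). tRNA-Arg-TCG-1-1 had 168.7, 171.2, 149.7 and 165.5 in wild-type livers 1, 3, 22 and 24 and 117.5, 117.5, 118.7 and 126.2 in Phe11 livers, a change of -0.46 ± 0.11 (adjusted p = 0.000909). tRNA-Arg-ACG-3-1 had 153.3, 168.6, 144.9 and 156.3 in wild type and 117.5, 124.7, 142.6 and 126.2 in Phe11, a change of -0.31 ± 0.11 (adjusted p = 0.0423). No Phe11 liver reached the wild-type range at either gene, and the groups did not overlap at 4 of the 28 loci, beside 14.4% of all loci. The first call was lost in batch 2 alone (-0.36, adjusted p = 0.178) and without limma's trend (adjusted p = 0.0895). The second was lost in batch 1 alone (-0.41) and batch 2 alone (-0.16), with the close pairs averaged (adjusted p = 0.141), with no filter (adjusted p = 0.1002), with TMM scaling (adjusted p = 0.0805), without limma's trend (adjusted p = 0.309) and with DESeq2 (adjusted p = 0.199). It was also lost without wild-type liver 1 (-0.29), 3 (-0.22) or 24 (-0.34) or Phe11 liver 6 (-0.31) or 21 (-0.29).

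In Phe21 liver 3 of 28 loci were called, all lower, beside 13.4% of all 201 loci (4.98% called lower). tRNA-Arg-ACG-2-1 had 102.6, 93.8 and 99.1 in wild-type livers 1, 3 and 24 and 74.0, 65.2 and 64.9 in Phe21 livers, a change of -0.53 ± 0.13 (adjusted p = 0.0014). The other calls were at lysine genes of few reads, tRNA-Lys-CTT-3-6 (18.5 ± 6.16 in wild type and 7.34 ± 2.54 in Phe21, SD, n = 3 each; limma adjusted p = 0.0279) and tRNA-Lys-TTT-1-2 (17.6 ± 5.47 and 7.27 ± 3.45; limma adjusted p = 0.0377). At both lysine genes the Phe21 mean was below the filter of 10, so they were tested through their higher level in wild type. The groups did not overlap at 9 of the 28 loci, these 3 among them, beside 31.3% of all loci. Averaging wild-type livers 3 and 24 lost the call at tRNA-Lys-CTT-3-6 (adjusted p = 0.112) and at tRNA-Lys-TTT-1-2 (adjusted p = 0.0503). tRNA-Lys-CTT-3-6 was also lost without wild-type liver 3 (-0.98) or 24 (-1.25) or Phe21 liver 8 (-1.06) or 9 (-1.14), and tRNA-Lys-TTT-1-2 without wild-type liver 1 (-0.98), 3 (-1.35) or 24 (-1.31) or Phe21 liver 7 (-1.20) or 9 (-0.92). Without limma's trend tRNA-Arg-ACG-2-1 was not called (adjusted p = 0.0567), nor was tRNA-Lys-TTT-1-2 (adjusted p = 0.0567). Wild-type liver 24 was of batch 2, whereas all Phe21 livers were of batch 1.

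**Figure D3:**
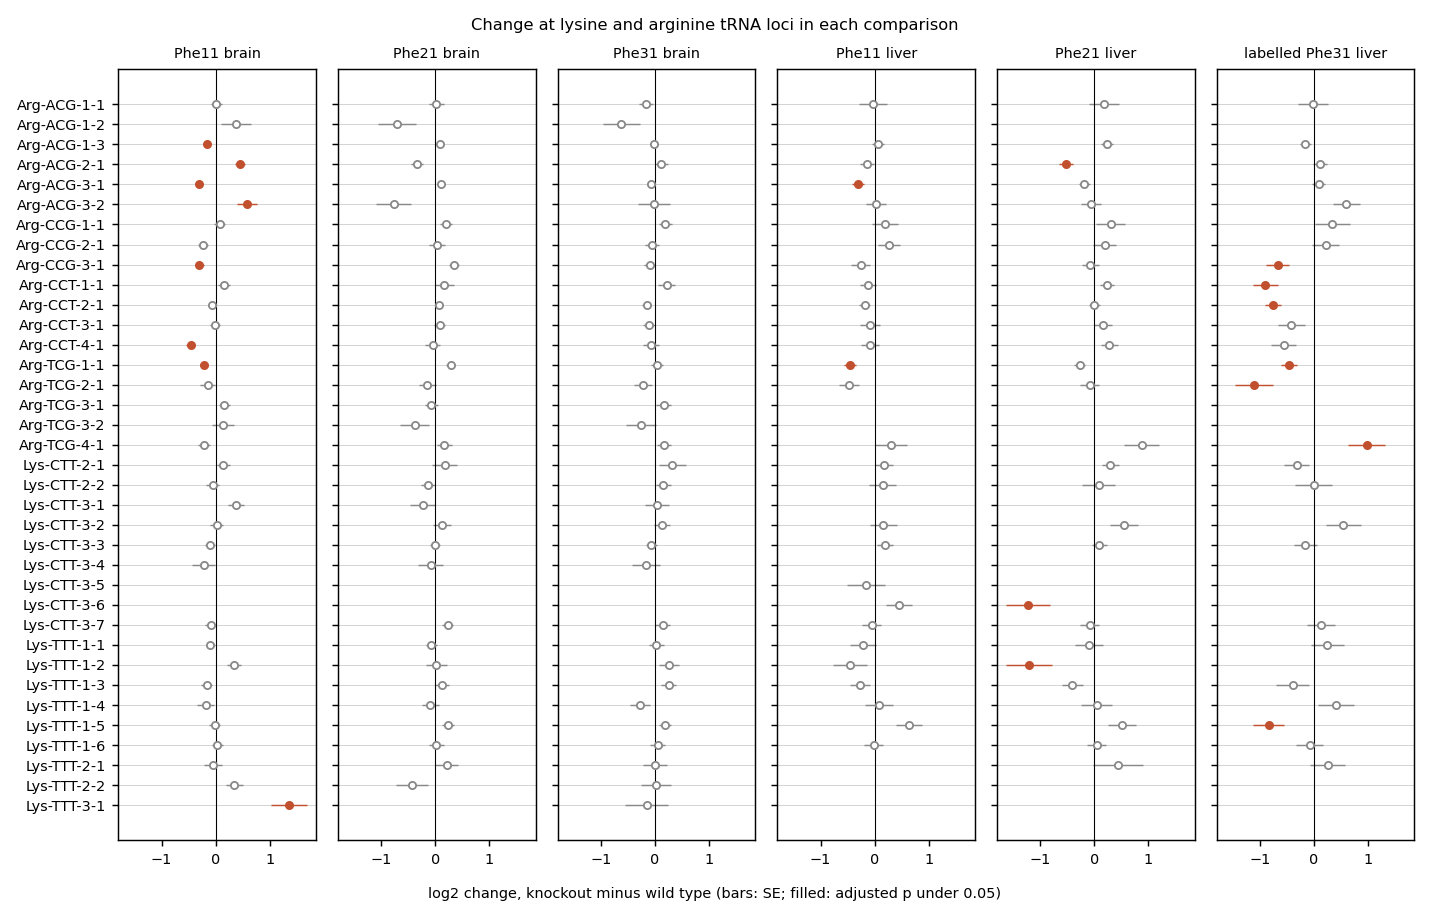
The log2 change, knockout minus wild type, at the lysine and arginine loci tested in each of the 6 comparisons, with bars for the SE and filled points for an adjusted p under 0.05. There are 8 filled points for Phe11 brain, none for Phe21 or Phe31 brain, 2 for Phe11 liver, 3 for Phe21 liver and 7 for the livers labelled Phe31, and most other points lie within 0.5 of 0.

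In the livers labelled Phe31, 7 of 26 loci were called, beside 10.7% of all 178 loci. Of these 1 was higher, beside 1.69% of all loci, and 6 lower, beside 8.99%. The 6 arginine calls fell on Arg-CCT, Arg-TCG and Arg-CCG genes. tRNA-Arg-CCT-2-1 had 85.7, 72.7 and 82.8 in wild-type livers and 48.4, 38.5 and 55.5 in those labelled Phe31, a change of -0.76 ± 0.15 (adjusted p = 2.75e-05). tRNA-Arg-CCT-1-1 had 32.9, 36.0 and 35.4 in wild type and 27.02, 9.62 and 22.5 in those labelled Phe31, a change of -0.90 ± 0.23 (adjusted p = 0.00403). The other Arg-CCT loci tested, tRNA-Arg-CCT-3-1 and tRNA-Arg-CCT-4-1, were not called, and summed over the group Arg-CCT stood at 64.8% of wild type (SD of the libraries labelled Phe31 11.8, n = 3).

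tRNA-Arg-TCG-1-1 had 73.3, 72.7 and 79.3 in wild type and 59.7, 52.2 and 51.6 in the livers labelled Phe31, a change of -0.46 ± 0.14 (adjusted p = 0.0242). Within the same group tRNA-Arg-TCG-2-1 fell from 14.8 ± 2.87 to 7.00 ± 3.69 (SD, n = 3 each; limma adjusted p = 0.0242) and tRNA-Arg-TCG-4-1 rose from 7.15 ± 0.798 to 15.5 ± 4.66 (limma adjusted p = 0.0446). tRNA-Arg-CCG-3-1 fell from 40.2 ± 4.48 to 25.3 ± 6.61 (limma adjusted p = 0.0242) and the lysine copy tRNA-Lys-TTT-1-5 from 19.9 ± 3.73 to 10.6 ± 1.48 (limma adjusted p = 0.0446). tRNA-Arg-TCG-2-1 and tRNA-Arg-TCG-4-1 each had 1 group mean below the filter of 10 and were tested through the group where they are higher. The groups did not overlap at 10 of the 26 loci, the 7 called among them, beside 23.6% of all loci.

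These were the shallowest libraries, and the calls rested on single libraries more than elsewhere. The count of 7 fell to 2 without wild-type library a or b, to 1 without wild-type library c or library b of those labelled Phe31, and to 6 or 5 without library a or c of those labelled Phe31. Library b of the livers labelled Phe31 was the lowest at 3 genes, and without it the changes were -0.48 at tRNA-Arg-CCT-1-1, -0.45 at tRNA-Arg-CCG-3-1 and -0.63 at tRNA-Arg-TCG-2-1, while tRNA-Arg-TCG-4-1 stood at 0.86 and tRNA-Arg-TCG-1-1 at -0.43, none of them called. The call at tRNA-Lys-TTT-1-5 did not hold without wild-type library a (-0.76), b (-0.997) or c (-0.76), nor without library a (-0.73) or b (-0.87) of those labelled Phe31. tRNA-Arg-CCT-2-1 was called in each of these fits. DESeq2 called 0 of the 26 loci and edgeR 2. Without limma's trend none was called, tRNA-Arg-CCT-2-1 included (adjusted p = 0.0640).

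Signal at the near-silent copies moved with this group. Summed over the 15 loci below the filter, the livers labelled Phe31 had 46.6 to 56.9 reads per 10000 and their wild-type livers 16.1 to 22.7, with no overlap and a ratio of means of 2.65. The 119 other tRNA loci below the filter summed to 249.3 to 267.0 in those livers and 133.1 to 156.5 in wild type, a ratio of 1.74. The part of this in the changes above was not tested. In the other livers the 15 loci summed to 21.5 to 24.6 in wild type, 11.6 to 18.5 in Phe11 and 6.46 to 12.4 in Phe21, and in brains to between 3.82 and 12.0.

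**Figure D4:**
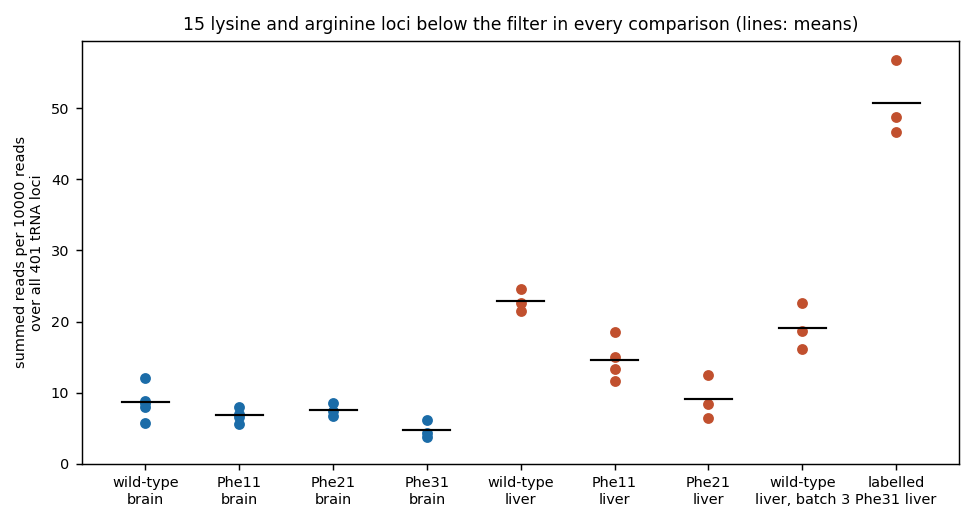
Summed reads per 10000 reads over all 401 loci at the 15 lysine and arginine loci below the filter in every knockout comparison, with 1 point per library and a line at each group's mean. The livers labelled Phe31 stand at 46.6 to 56.9, above all other groups.

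Among the called loci, tRNA-Arg-ACG-3-1 fell in Phe11 brain and Phe11 liver, and tRNA-Arg-CCG-3-1 in Phe11 brain and the livers labelled Phe31. For 2 other arginine genes the change differed between tissues. tRNA-Arg-TCG-1-1 fell in Phe11 brain (85.6% of wild type), Phe11 liver (72.6%) and the livers labelled Phe31 (72.6%), 3 comparisons that share no library. It lost the call in 7 alternatives and kept it in 14 in Phe11 brain, and lost it in 2 and kept it in 20 in Phe11 liver. In the livers labelled Phe31 it lost the call in 8 alternatives, edgeR and DESeq2 among them, and kept it in 7. It stood at 122% in Phe21 brain, with 172.1, 163.3 and 182.4 in wild type and 195.4, 227.3 and 207.0 in Phe21 (adjusted p = 0.0936), at 103% in Phe31 brain, and at 83.2% in Phe21 liver (adjusted p = 0.0759), none of which passed the limma threshold. The change at tRNA-Arg-TCG-1-1 in Phe21 differed between tissues, by 0.55 ± 0.14 on the log2 scale, brain minus liver (adjusted p = 0.0128 by limma). This gene was the 1 called of 27 lysine and arginine loci in that test, beside 4.06% of all 197 loci. Brain and liver libraries of Phe21 carry the same sample numbers, as do some of wild type and Phe11. The fits of a difference between tissues held no term for these numbers and took all libraries as independent.

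tRNA-Arg-ACG-2-1 stood at 136% of wild type in Phe11 brain and at 91.1% in Phe11 liver, where it was not called, and the changes differed between tissues by 0.59 ± 0.16 (adjusted p = 0.0167 by limma). It was the 1 called of 26 loci, beside 7.28% of all 206. In Phe21 tRNA-Arg-ACG-2-1 stood at 69.1% in liver and at 78.9% in brain, where the groups did not overlap (90.3 to 95.0 against 69.3 to 75.2) but the change was not called (adjusted p = 0.116). The Phe11 and Phe21 comparisons of each tissue share wild-type libraries.

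**Figure D5:**
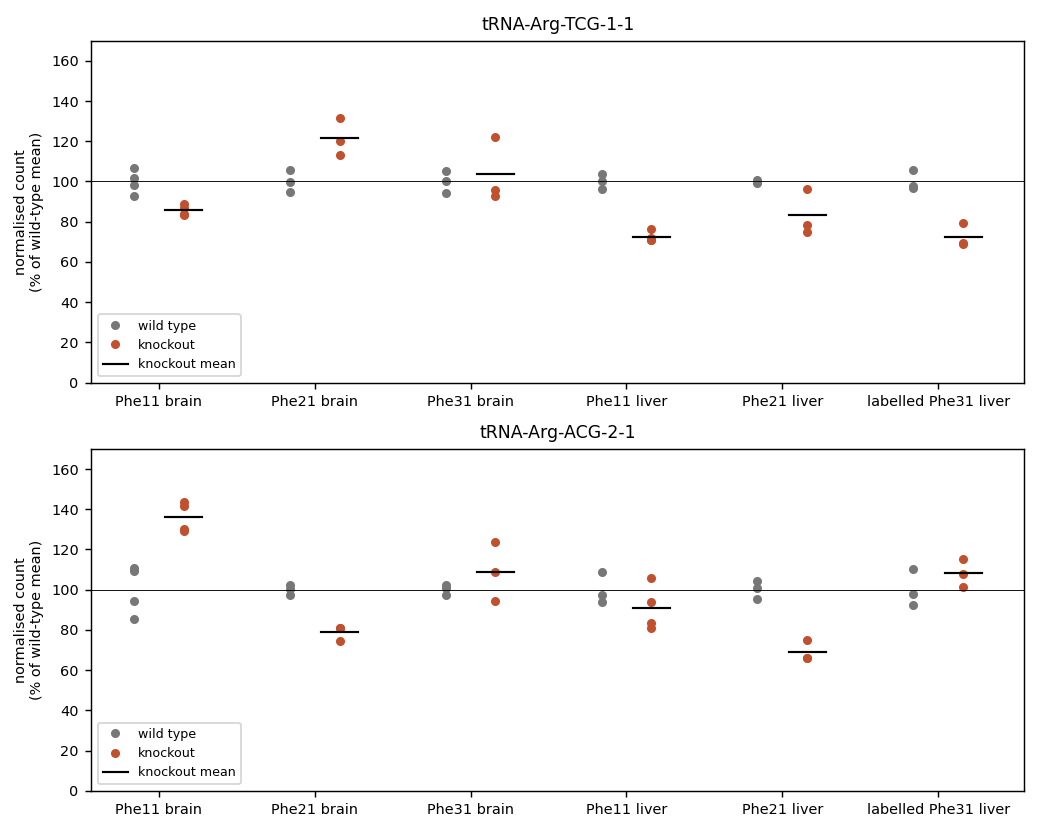
Normalised counts of tRNA-Arg-TCG-1-1 (top) and tRNA-Arg-ACG-2-1 (bottom) in each library, as percent of the wild-type mean of the same comparison, for wild type (grey), knockout (orange) and the knockout mean (line). tRNA-Arg-TCG-1-1 lies at 72.6% in Phe11 liver and 122% in Phe21 brain, and tRNA-Arg-ACG-2-1 at 136% in Phe11 brain and 69.1% in Phe21 liver.

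Summed by anticodon, the largest departure from wild type was that of Arg-CCT in the livers labelled Phe31, at 64.8%, with sums of 89.4 to 128.4 against 172.8 to 176.2. In those livers Arg-TCG stood at 82.1%, also without overlap, and Lys-CTT at 112% with overlap. In Phe11 brain the Arg-ACG loci summed to 93.3% of wild type, Arg-CCT to 90.9% and Arg-TCG to 92.3%, with no overlap between groups, while Arg-CCG at 88.6%, Lys-CTT at 100.5% and Lys-TTT at 100.9% overlapped. In Phe11 liver Arg-TCG stood at 78.2% (SD 5.69, n = 4), the 1 sum there without overlap. In Phe21 brain the sums ran from 101.7% for Lys-TTT to 115% for Arg-CCG, and only Lys-CTT did not overlap, at 103%. In Phe31 brain they ran from 93.4% for Arg-CCT to 106% for Lys-TTT, and only Lys-TTT did not overlap. In Phe21 liver Arg-ACG (94.7%), Arg-CCT (108%) and Lys-TTT (91.5%) did not overlap, while Arg-TCG at 88.2% did. Over the sums of all 47 anticodons with a mean of at least 10, the share without overlap in brain was 31.9% for Phe11, 34.0% for Phe21 and 17.02% for Phe31. In liver it was 12.8% for Phe11, 38.3% for Phe21 and 44.7% for the libraries labelled Phe31, so the overlaps of these 6 sums show nothing particular to them. None of the Arg-TCT loci, the arginine genes left out of the list, was called in any of the 6 comparisons, with 3 or 4 of 5 tested in each.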

How the data were processed

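The authors aligned trimmed reads to GRCm38.p6 with Bowtie2 2.4.1, removed duplicates with Picard 2.23.8, filtered on mapping quality, kept short nucleosome-free fragments and counted them with featureCounts 2.0.0 over high-confidence GtRNAdb genes with flanking bases. The signal deposited for a locus is its number of reads after the authors scaled each library by its DESeq2 1.30.0 size factor, separately in each comparison's table. Peaks were called by the authors with Genrich 0.6. Whole reads were recovered in every column (tolerance 0.001), and in 4 columns no separate check of this was possible. The deposited tables also hold the authors' fold changes and s-values, and the deposited peak lists other columns such as a peak score. Neither was used, and only peak positions were read.

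Each knockout was compared with wild type in its own table by limma 3.58.1 with trend (R 4.3.3), two-sided, on log2(normalised count + 1), for loci with a mean of at least 10, with Benjamini-Hochberg adjustment over all loci tested. Batch was a numeric term in Phe11 and in the wild-type and Phe11 tissue fits. Tissues were compared on recovered reads scaled together by median of ratios, and interactions in a joint fit. Only a plain limma comparison of groups was run on simulated counts, without the batch term, the merged pair or the interaction. Labels do not say which libraries came from separate animals, so p-values measure spread between these samples, and precision is limited by the reads per library given in the report. Wild-type livers 1 and 22 entered as their mean. The deposited columns of the livers labelled Phe31 and of their wild-type livers could not be matched to the numbers in the sample titles. They are named a, b and c.

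Loci named were those called in a knockout or interaction test, the 6 per direction with the largest mean tissue difference among those called alike in all 3 genotypes, the highest and lowest of each anticodon among loci tested, and loci with no read. The members, lists and tests were chosen with earlier results of these data known. Alternatives were other pseudocounts, filters, scalings, edgeR 4.0.16 and DESeq2 1.42.0 on recovered reads, single batches, a replicate block, and leaving out each library. The interactions were refitted only with edgeR, a pseudocount of 10 and a filter of 30. Averaging all close pairs, and in wild-type tissue replicates 1 and 22 as 2 samples, were chosen after seeing the data.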

Additional observations from a re-analysis of the deposited data

Results flagged for a closer look

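The change at tRNA-Arg-ACG-2-1 in Phe11 differed between tissues, by 0.59 on the log2 scale, brain minus liver (adjusted p = 0.0167 by limma over all loci tested), and that at tRNA-Arg-TCG-1-1 in Phe21 by 0.55 (adjusted p = 0.0128). Both passed the threshold with edgeR, with a pseudocount of 10 and with a filter of 30. No other alternative was run for these tests, so neither call was checked with close pairs averaged or with a library left out.

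Of 18 groups of 4 libraries examined at called loci, 2 held a library far from the others, where chance alone gives about 1 in 20. Wild-type brain 16 had a normalised count of 356.8 at tRNA-Arg-ACG-3-1, the other wild-type brains 346.4 to 347.5. Phe11 liver 21 had 126.2 at tRNA-Arg-TCG-1-1, the other Phe11 livers 117.5 to 118.7. Both gaps were small beside the difference between genotypes at the same locus.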

How the results depend on the processing

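Counts of called loci in brain against liver (24, 24 and 17) stayed within 1.5 times under every alternative run, and ranged from 20 to 26, 22 to 24 and 16 to 18 when 1 library was left out. With the replicate number as a block the Phe21 count was 17 and the wild-type count, on replicates 1 and 3 only, was 17. That wild-type fit, with fewer libraries as well as the block, did not call tRNA-Lys-CTT-3-1 (0.78, limma adjusted p = 0.333), tRNA-Lys-CTT-2-2 (0.39) or tRNA-Lys-CTT-3-7 (-0.47). Nor did it call tRNA-Lys-TTT-1-3 (-0.32), tRNA-Lys-TTT-2-1 (0.37) or tRNA-Arg-ACG-1-3 (0.15). The parts of the block and of the fewer libraries in these losses were not tested. The labels do not say that a number marks 1 animal. Each Phe21 library correlated best with its own number (0.124, 0.0980 and 0.114), and the block is given only here. With the wild-type livers of batch 3, 4 loci changed direction in wild type: tRNA-Arg-ACG-1-3 (-0.14), tRNA-Lys-CTT-3-7 (0.17), tRNA-Lys-TTT-1-3 (0.14) and tRNA-Lys-TTT-2-1 (-0.50). The cause was not tested.

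The knockout counts moved more. Phe11 brain (8) gave 4 with DESeq2 and 0 in batch 1 alone (7 to 9 with 1 library left out). Phe21 brain (0) gave 1 with TMM scaling (0 to 2, the 2 without Phe21 brain 7), and Phe31 brain 0 in all. Phe11 liver (2) gave 1 with no filter, with TMM, with DESeq2, in batch 1 alone and with all close pairs averaged, and 0 without trend and in batch 2 alone (1 to 4, the 4 without Phe11 liver 4). Phe21 liver (3) gave 6 with no filter and with edgeR, 5 with TMM, and 1 with a filter of 30, without trend and with close pairs averaged (1 to 6, the 6 without wild-type liver 1 and the 1 without wild-type liver 3). The livers labelled Phe31 (7) gave 3 with a filter of 30, 2 with edgeR, and 0 without trend and with DESeq2 (1 to 6). The tissue difference of the change in Phe11 (1) gave 3 with edgeR. The sums moved beyond 1 SD for Arg-TCG in Phe11 brain (95.0%) and Lys-TTT in Phe21 brain (99.0%) with equal totals, and for Arg-TCG in the livers labelled Phe31 (77.1%) with TMM. Replicates 1 and 22 are not both in the Phe21 liver table, so that alternative was not run there. At the depth of the livers labelled Phe31, loci under about 10 reads a library could not be tested.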

Other observations

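Among loci outside any test, named after their reads were seen, tRNA-Lys-CTT-8-1 had reads in 15 of 15 brains (79 in all, at most 9 in a library) and in 15 of 17 livers (37), the most of the Lys-CTT loci below the filter in brain. tRNA-Lys-CTT-6-1 had 28 reads in brain and 48 in liver, and tRNA-Lys-TTT-5-1 had 13 and 31. In wild-type livers the reads at tRNA-Arg-TCG-1-1 differed between batches, with 158.1 to 168.5 per 10000 in the 3 samples of batches 1 and 2 and 108.5 to 120.1 in the 3 of batch 3, and those at tRNA-Arg-TCG-2-1 with 40.5 to 45.2 and 18.9 to 26.8.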
